A study of Mus musculus with 8 samples.

Results

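Skin of hairloss mice was compared with skin of wildtype mice at postnatal day 19, with 1 library on each side. Protein-coding genes with a value of at least 1 in either library were described, which were 13683 of the 21976 protein-coding genes in the files. The hairloss mice carry a spontaneous mutation, and the question named by the study is how genes of keratins and of keratin-associated proteins differ in them. Total RNA of skin was sequenced in 8 libraries, 1 for each genotype at postnatal days 0, 16, 19 and 28. The wildtype mice of the same 4 ages are the controls. The mutated gene, the strain, the sex and the number of animals behind a library are not stated in the sources used here. Neither group was replicated at day 19, so a difference describes these 2 libraries, has no replicate check and carries no test or p-value.

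The hair follicle of the mouse grows in cycles, and around this age the first growth phase has ended in a pelage follicle, which regresses, rests and then grows again. During growth, the matrix cells at the follicle base divide and build the hair shaft from hair keratins and keratin-associated proteins (KRTAPs), inside a mould, the inner root sheath, that has keratins of its own. In the epidermis between follicles, basal cells make Krt5 and Krt14 and their daughters switch to Krt1 and Krt10. Injured or hyperproliferative epidermis adds Krt6a, Krt6b, Krt16 and Krt17, which the companion layer of the follicle also uses, together with S100a8, S100a9 and small proline-rich proteins.

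Values are taken as FPKM, that is, fragments per kilobase of transcript at a common library size, and where a pair of values follows a gene the wildtype value of day 19 comes first and the hairloss value second. Differences are hairloss minus wildtype on the log2(FPKM + 1) scale, which understates the change of low genes. A gene was counted as higher or lower when it differed at least 2-fold on that scale. A gene near 0 in 1 library is measured only through the other and is then nearly always counted. Counts in lists of such genes partly follow from this rule. Depth, estimated from the spacing of low values, was 38900000 fragments for wildtype and 30900000 for hairloss, in a range of 30900000 to 44700000 over the 8 libraries. Both day 19 libraries held keratinocyte RNA, with Krt5 at 831 FPKM in wildtype against 1903 FPKM in hairloss. Both held Y-linked RNA (Ddx3y, 15.8 FPKM in wildtype against 19.4 FPKM in hairloss), but Xist RNA was at 12.4 FPKM in wildtype against 0.115 FPKM in hairloss, so the wildtype library carried RNA of both sexes' markers. The noncoding gene AY036118, which overlaps a ribosomal RNA repeat, was at 1597 FPKM in the day 19 wildtype library and at 0 in the other 7. Sex markers also differed at other ages. At day 28 Ddx3y was at 16.5 FPKM in wildtype and 0 in hairloss, and Xist at 0.166 and 50.2 FPKM. At that age sex markers and genotype thus cannot be told apart. At day 0 Ddx3y was at 16.3 FPKM in wildtype and 0 in hairloss, and Xist at 51.3 and 76.1 FPKM. The part of sex and of ribosomal RNA in the differences below was not tested.

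At day 19, 798 of 13683 genes were at least 2-fold higher in hairloss skin (5.83%) and 718 were at least 2-fold lower (5.25%), while 12167 lay within 2-fold (88.9%). Counts of list members below are to be read against these shares. The median difference of all genes was 0.00. At 4-fold the counts were 232 higher and 106 lower, and at 16-fold 38 higher and 8 lower. Scaling both libraries to an equal total over coding genes moved the median of all genes to -0.14 and turned the split from 798 higher and 718 lower to 637 higher and 938 lower. Hairloss skin was also set against all 4 wildtype ages. Of the genes measured, 205 stood at least 2-fold above the highest wildtype library (1.5%) and 30 at least 2-fold below the lowest (0.219%). Thus 205 of the 798 higher genes (25.7%), and 30 of the 718 lower genes (4.18%), lay beyond the range, by 2-fold or more, that wildtype skin covered from birth to day 28. Below, above or under the wildtype range means beyond it by 2-fold or more in this way. Genes beyond it by less are not in those counts. For 533 of the lower genes (74.2%) day 19 was the highest wildtype library, against 27.7% of all genes, a share that the choice of genes by a high day 19 wildtype value raises.

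**Figure D1:**
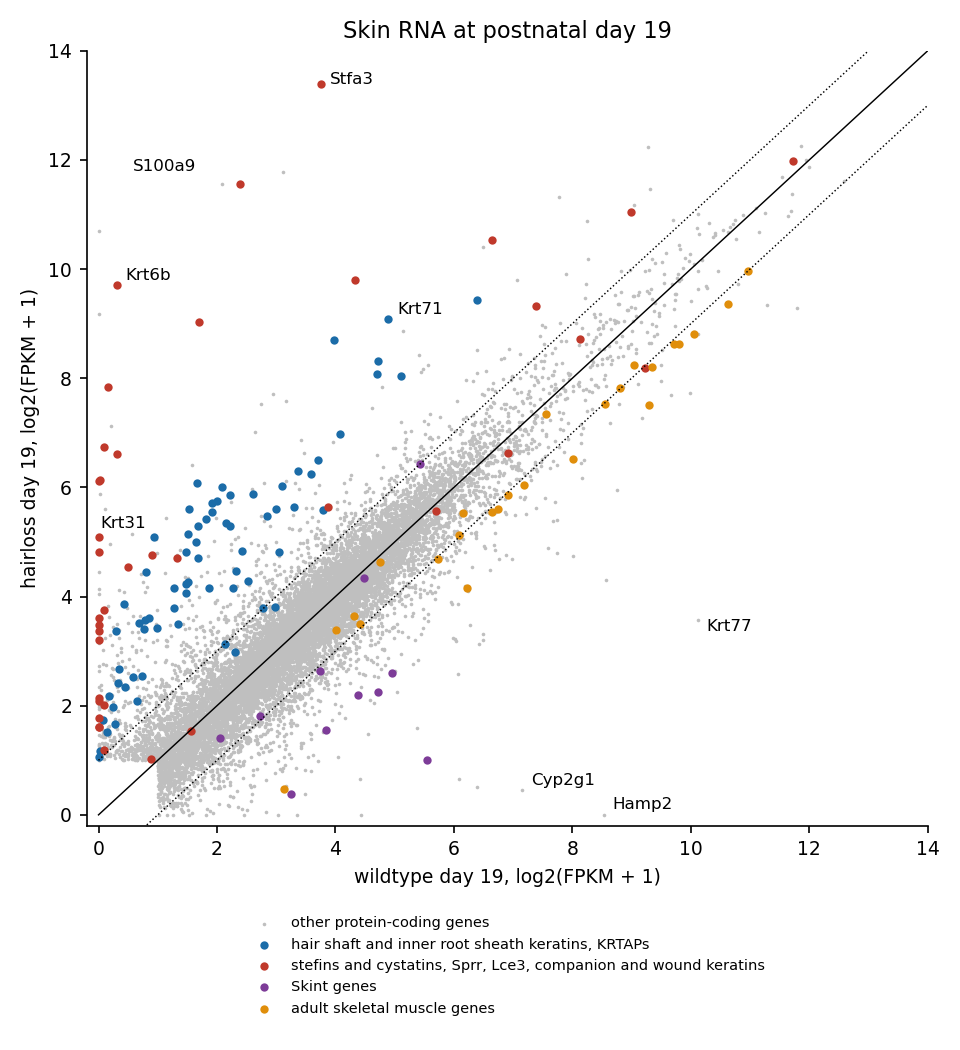
Each point is 1 protein-coding gene, with its wildtype value at day 19 on the x axis and its hairloss value at day 19 on the y axis, both as log2(FPKM + 1). The solid line marks equal values and the dotted lines 2-fold. Hair genes (blue) lie mostly above the upper line, as do stefins and cystatins, Sprr and Lce3 genes and companion and wound keratins (red). Skint genes (purple) and muscle genes (orange) lie mostly at or under the lower one.

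Higher genes were frequent in a few genomic clusters, although most called genes lay elsewhere. The 7 clusters of keratin, KRTAP, epidermal differentiation, stefin, clade B serpin and Skint genes together held 200 of the genes measured, and 138 of these were higher and 21 lower. They gave 17.3% of all higher genes and 2.92% of all lower genes. The epidermal differentiation complex (mm10 chr3:90511034-93564643) had 35 of 65 genes higher and 8 lower. The type I keratin and KRTAP cluster (chr11:99279959-100269871) had 46 of 54 higher and 3 lower, and the type II keratin cluster (chr15:101347444-102004482) 17 of 21 higher and 1 lower. The stefin cluster (chr16:36119946-36455392) had 9 of 10 higher. By level, genes with a mean of at least 100 FPKM differed most often, with 13% higher and 9.91% lower.

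The promoters of genes from both ends of the comparison are shown because several carry the same TATA box word at nearly the same place. Each is the 100 bases just before the gene's start, 5′ to 3′ on the gene's strand, from RefSeq on build GRCm38.p6. Capitals mark the TATA box word TATAAA. Krt31 (chr11:100050552-100050651, minus strand), Krt71 (chr15:101743098-101743197, minus strand) and Krtap8-1 (chr16:89487953-89488052, minus strand) are hair genes. S100a8 (chr3:90668971-90669070, plus strand) and Sprr1b (chr3:92438780-92438879, minus strand) are wound-type genes that were higher. Stfa3 (chr16:36455393-36455492, minus strand) is a stefin gene that was higher. Krt77 (chr15:101869706-101869805, minus strand) is the epidermal keratin that was lower by the most.
Krt31: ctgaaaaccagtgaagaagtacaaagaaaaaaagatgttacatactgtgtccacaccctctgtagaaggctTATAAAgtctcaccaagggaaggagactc
Krt71: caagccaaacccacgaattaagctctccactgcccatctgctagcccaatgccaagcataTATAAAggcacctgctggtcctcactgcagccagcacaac
Krtap8-1: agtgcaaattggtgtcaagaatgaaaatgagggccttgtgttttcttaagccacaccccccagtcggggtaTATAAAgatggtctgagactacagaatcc
S100a8: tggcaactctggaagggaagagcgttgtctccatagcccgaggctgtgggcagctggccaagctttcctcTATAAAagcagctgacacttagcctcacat
Sprr1b: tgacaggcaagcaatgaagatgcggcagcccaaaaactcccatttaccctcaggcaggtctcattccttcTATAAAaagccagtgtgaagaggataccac
Stfa3: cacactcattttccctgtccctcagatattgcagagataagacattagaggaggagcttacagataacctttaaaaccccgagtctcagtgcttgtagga
Krt77: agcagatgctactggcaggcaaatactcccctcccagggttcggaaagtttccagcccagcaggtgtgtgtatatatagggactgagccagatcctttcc
The word starts 29 bases before the start in Krt31 and Krtap8-1, 30 bases before it in S100a8 and Sprr1b, and 40 bases before it in Krt71. Stfa3 and Krt77 do not have these exact letters in the window shown. Krt77 carries tatatata and Stfa3 tttaaaa, similar letters that were not marked or counted. Lack of the exact word is thus not lack of a TATA box.

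Promoters from 250 bases before to 50 bases after the start were matched for 10695 of the genes measured. TATAAA, searched on the gene's strand 45 to 20 bases before the start, was present in 256 of them (2.39%). It was present in 90 of 598 higher genes (15.1%) and in 23 of 547 lower genes (4.20%). Searched on both strands of the whole window the contrast was smaller, with 26.9% of higher genes, 17.4% of lower genes and 10.1% of all. Among hair shaft and inner root sheath keratins it was present in 9 of 16 promoters, among KRTAPs in 25 of 41, and among stefins, Sprr and Lce3 genes and the calprotectin pair in 9 of 31. The AP-1 word TGACTCA, searched on both strands of the whole window, was in 5.17% of all promoters. It was in 8 of 31 of that last set, in 6 of 41 KRTAPs and in 0 of 16 of the hair keratins. The Lef1/TCF word CTTTGAA was in 4.49% of all promoters, in 6 of 16 hair keratins, in 8 of 41 KRTAPs and in 1 of 31 of the stefin, Sprr, Lce3 and calprotectin set. Of the 7 words searched, TTGCNNAA (C/EBP) was in 8 of the 31, against 10.5% of all promoters. It was also in 8 of 41 KRTAPs, in 2 of 16 hair keratins and in 4 of 11 Skint genes. The AP-1 word was about as frequent in higher as in lower genes (9.20% and 9.14%), and so was the C/EBP word (14.4% and 15.5%). CACGTG (E-box), GGGNNTTCC (NF-kB) and TTCNNGGAA (STAT) were in 1, 0 and 1 of those 31, against 11.4%, 8.50% and 5.32% of all promoters. Neighbouring members of one family share sequence, so such matches describe families rather than independent genes.

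Hair shaft keratins, the hard keratins of the fibre, were higher in hairloss skin at day 19. Of 15 measured, 13 were higher and none was lower, with a median difference of 3.34. Krt31, an acidic keratin of the hair cortex, stood at 0.915 FPKM in wildtype against 33.3 FPKM in hairloss, a ratio of 36.3. Krt83, a basic partner, was at 2.17 and 67.0 FPKM. Hairloss held the higher value in each pair, but both genes were far higher in wildtype skin at days 16 and 28. Krt31 was at 313 FPKM in wildtype at day 16 and at 343 FPKM at day 28. None of the 15 exceeded its highest wildtype library. The 2 not counted were Krt32 and Krt36, with differences of 0.83 and 0.98. Krt84, of the basic list, passed narrowly at 1.01 and lost the call at 0.86 after scaling to an equal coding total.

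The direction depended on the age, and the day 28 pair also differed in the sex markers given above. Krt31 stood at 80.7 FPKM in hairloss skin at day 16, under the wildtype 313, and at 0.0273 FPKM at day 28, under the wildtype 343. From day 16 to day 19 the wildtype value thus went from 313 to 0.915 FPKM while the hairloss value went from 80.7 to 33.3 FPKM. The median difference of the acidic hair keratins was -2.04 at day 16, 3.08 at day 19 and -4.93 at day 28. Of the 798 genes higher at day 19, 266 were also higher at day 16 (33.3%, against 5.01% of all genes measured) and 164 were lower there (20.6%, against 4.44%). They made up 38.8% of the genes higher at day 16 and 27% of those lower. At day 28, 135 of them were higher (16.9%, against 4.9% of all genes) and 224 were lower (28.1%, against 4.97%), which was 20.1% and 32.9% of the genes called at that age. Of the 718 lower genes, 137 were also lower at day 16 and 7 were higher (19.1% and 0.975%), and at day 28 68 were lower and 90 higher (9.47% and 12.5%). The lower genes made up 22.6% of the genes lower at day 16 and 10% of those lower at day 28, and 1.02% and 13.4% of the genes higher at those ages.

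Inner root sheath keratins showed the same direction as those of the shaft. All 7 measured were higher, with a median difference of 3.93 and none above the highest wildtype library. Krt25 was at 14.7 FPKM in wildtype against 416 FPKM in hairloss, and Krt71, whose mutation causes a wavy coat in mice, at 28.6 and 542 FPKM. At day 16, Krt71 was at 2666 FPKM in wildtype against 1903 FPKM in hairloss. The day 19 hairloss value of Krt71 lay between the wildtype values of days 19 and 16.

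**Figure D2:**
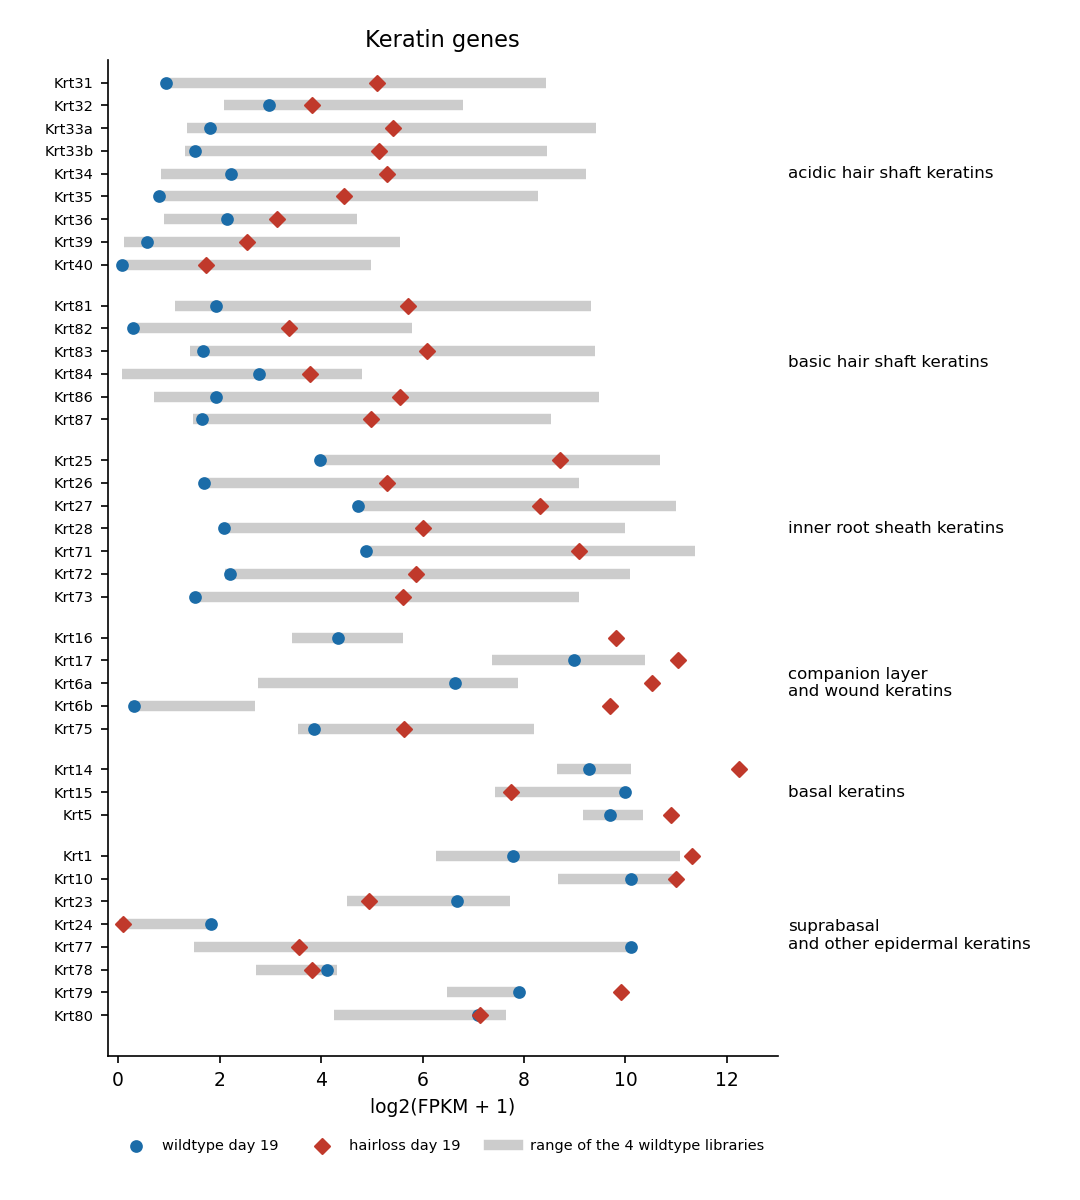
Each row is a keratin gene, with the wildtype day 19 value (blue circle), the hairloss day 19 value (red diamond) and the range of the 4 wildtype libraries (grey bar), as log2(FPKM + 1). Hair shaft and inner root sheath keratins of hairloss skin lie to the right of the day 19 wildtype value and inside the grey bar. Krt6b, Krt16, Krt6a, Krt14, Krt17, Krt5, Krt1 and Krt79 lie to the right of the bar. Krt77 lies far to the left of its day 19 wildtype value.

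The KRTAPs, matrix proteins that crosslink keratin filaments in the shaft, followed the keratins. Of 47 measured, 46 were higher, the median difference was 2.58 and none exceeded the highest wildtype library. Krtap7-1, of the glycine-tyrosine-rich class, stood at 25 FPKM in wildtype against 269 FPKM in hairloss. Krtap8-1 was at 33.4 and 262 FPKM, and Krtap11-1, of the cysteine-rich class, at 2.98 and 52.9 FPKM. Krtap19-3 differed by 3.21 (3.44 and 39.9 FPKM) and Krtap1-4 by 3.42 (0.352 and 13.5 FPKM). KRTAP genes have near-identical copies, so single values can be split between copies and the group is safer than a member. Keratin and KRTAP genes together held 1.58% of the coding FPKM in wildtype and 4.92% in hairloss.

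Regulators and differentiation genes of the hair matrix were higher too. Of 22 measured, 13 were higher and none lower, with a median of 1.22. S100a3, a calcium-binding protein of the hair cuticle, was at 7.93 FPKM in wildtype against 191 FPKM in hairloss. Gprc5d, an orphan receptor of the hard-keratinised structures, stood at 1.58 and 27.9 FPKM, and Vsig8, a hair shaft protein, at 0.392 and 12.9 FPKM. Its transcription factors differed in level and direction. Hoxc13, needed for hair keratin expression, was at 3.04 and 9.28 FPKM. Foxn1, the gene of the nude mouse, was at 1.36 and 3.83 FPKM. Msx2, a homeobox factor, stood at 2.32 and 4.35 FPKM and was not counted as higher. Cux1 was at 26.5 and 39.4 FPKM and Gata3, which went the other way, at 26.6 and 18.4 FPKM, both within 2-fold. None of the 22 stood 2-fold or more above the highest wildtype library.

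Cell cycle genes were mostly higher. Of 22 genes measured, 17 were higher and none lower, with a median of 1.19, while none lay above the wildtype range. Mki67, the proliferation antigen, was at 6.06 FPKM in wildtype against 18.5 FPKM in hairloss. Plk1, a mitotic kinase, was at 1.21 and 6.16 FPKM, and Top2a, a topoisomerase of dividing cells, at 9.89 and 24.1 FPKM. Wildtype skin at the other ages reached 47.4 FPKM for Mki67 and 61.4 FPKM for Top2a. Of 20 genes of DNA replication, 0 reached 2-fold in either direction on the log2(FPKM + 1) scale. Their median difference was 0.53 and the largest 0.99. Mcm2, a helicase subunit, stood at 4.47 and 8.85 FPKM, and Mcm5 at 5.85 and 12.6 FPKM.

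All 5 companion layer and wound keratins were higher, and 3 of them lay 2-fold or more above the wildtype range. Krt6b, an inducible type II keratin, was at 0.236 FPKM in wildtype against 833 FPKM in hairloss, a ratio of 3530. Krt16 was at 19.2 and 893 FPKM. For Krt6a the values were 99.3 and 1479 FPKM. Krt17 stood at 505 and 2107 FPKM, and Krt75, a companion layer keratin, at 13.6 and 48.7 FPKM. Krt6a, Krt6b and Krt16 of hairloss skin stood at least 2-fold above the highest wildtype library. Krt17 also lay over its highest wildtype library, by less than 2-fold. Krt6b stood at no more than 5.48 FPKM in any wildtype library and at 101, 570, 833 and 79.2 FPKM in hairloss skin of days 0, 16, 19 and 28. Krt75, by contrast, was at 292 FPKM in wildtype at day 16 and its day 19 hairloss value lay inside the wildtype range. Krt6a and Krt6b are near-identical, so reads may be split between them.

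Keratins of the basal layer differed in direction. Krt14 was at 618 FPKM in wildtype against 4829 FPKM in hairloss, a ratio of 7.82, and lay above the wildtype range. Krt5, its partner, stood at 831 and 1903 FPKM. Krt15, a keratin of quiescent basal and bulge cells, was at 1018 and 212 FPKM, a difference of -2.26. Krt15 at day 19 was also the highest of the wildtype libraries, which measured 172, 421, 1018 and 350 FPKM at days 0, 16, 19 and 28. Krt5 and Krt14 were thus higher in hairloss skin while Krt15 was lower.

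Among 8 keratins of the suprabasal and upper epidermis, 2 were higher and 3 lower. The 2 higher ones both stood over their highest wildtype library, 1 of them by 2-fold or more. Krt1 stood at 218 FPKM in wildtype against 2541 FPKM in hairloss, a ratio of 11.6, and Krt79, a keratin of the follicle opening, at 238 and 963 FPKM. Krt10 was at 1107 and 2049 FPKM, a difference of 0.89. Krt77, a keratin of suprabasal epidermis and sweat ducts, was at 1109 FPKM in wildtype against 10.9 FPKM in hairloss, a ratio of 102 the other way. Krt23 stood at 102 and 29.8 FPKM, and Krt24 at 2.55 and 0.0720 FPKM. At day 28 Krt77 was at 481 FPKM in hairloss skin against 373 FPKM in wildtype.

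Stefins, small inhibitors of cathepsin proteases from one gene cluster, held the largest difference at day 19, apart from Col3a1, whose wildtype value is a suspected failed estimate. Stfa3 was at 12.6 FPKM in wildtype against 10773 FPKM in hairloss, a ratio of 857. Cstdc5 was at 4.23 and 3017 FPKM, Stfa1 at 2.26 and 520 FPKM and Stfa2 at 0.120 and 229 FPKM. Wildtype skin held Stfa3 at 2872 FPKM at birth and at 12.6 to 45.9 FPKM at days 16, 19 and 28, whereas hairloss skin stood at 3978 FPKM or more at every age. Of 15 stefins and cystatins measured, 10 were higher, 1 was lower and 8 stood above the wildtype range, and the median difference was 3.60. Cst3, cystatin C, was the lower one, at 600 and 291 FPKM. Stefin copies are near-identical, so a value for 1 copy is uncertain.

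Small proline-rich proteins and the Lce3 genes, precursors of the cornified envelope that appear in repairing epidermis, were higher as a set. Of 12 Sprr genes, 10 were higher and none lower, with a median of 2.72 and 8 above the wildtype range. Sprr1b was at 0.243 FPKM in wildtype against 96.4 FPKM in hairloss, and Sprr2a3 at 0.0658 and 106 FPKM. Sprr2a1 was at 0.0227 and 69.1 FPKM, and Sprr2d was listed at 0 in wildtype but at 68.8 FPKM in hairloss. Sprr2d was also at 0 in wildtype at days 16 and 28 and at 12.5 FPKM at birth, so its 0 may be a failed estimate. The Sprr2 genes are near-identical copies. All 6 Lce3 genes were higher, with a median of 3.30 and 5 above the wildtype range. The median wildtype value at day 19 was 0 FPKM for the Lce3 list and 0.063 FPKM for the Sprr list. Many members of both lists were thus measured only through the hairloss library, so these counts partly follow from the minimum of 1 FPKM. Lce3e stood at 0.0711 FPKM in wildtype against 12.5 FPKM in hairloss. Lce3d and Lce3f were listed at 0 in wildtype but at 10.1 and 8.27 FPKM in hairloss.

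The S100 pair of the alarm protein calprotectin stood at the top of its family. S100a9 was at 3.23 FPKM in wildtype against 3004 FPKM in hairloss, and S100a8 at 7.64 and 3499 FPKM. Wildtype skin reached 21.7 FPKM for S100a9 and 134 FPKM for S100a8 at another age, and hairloss skin had 1748 and 1984 FPKM at day 16. Of 14 S100 genes, 5 were higher, none was lower and the median was 0.69. S100a7a, the mouse psoriasin gene, was at 2.24 and 14.8 FPKM.

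**Figure D3:**
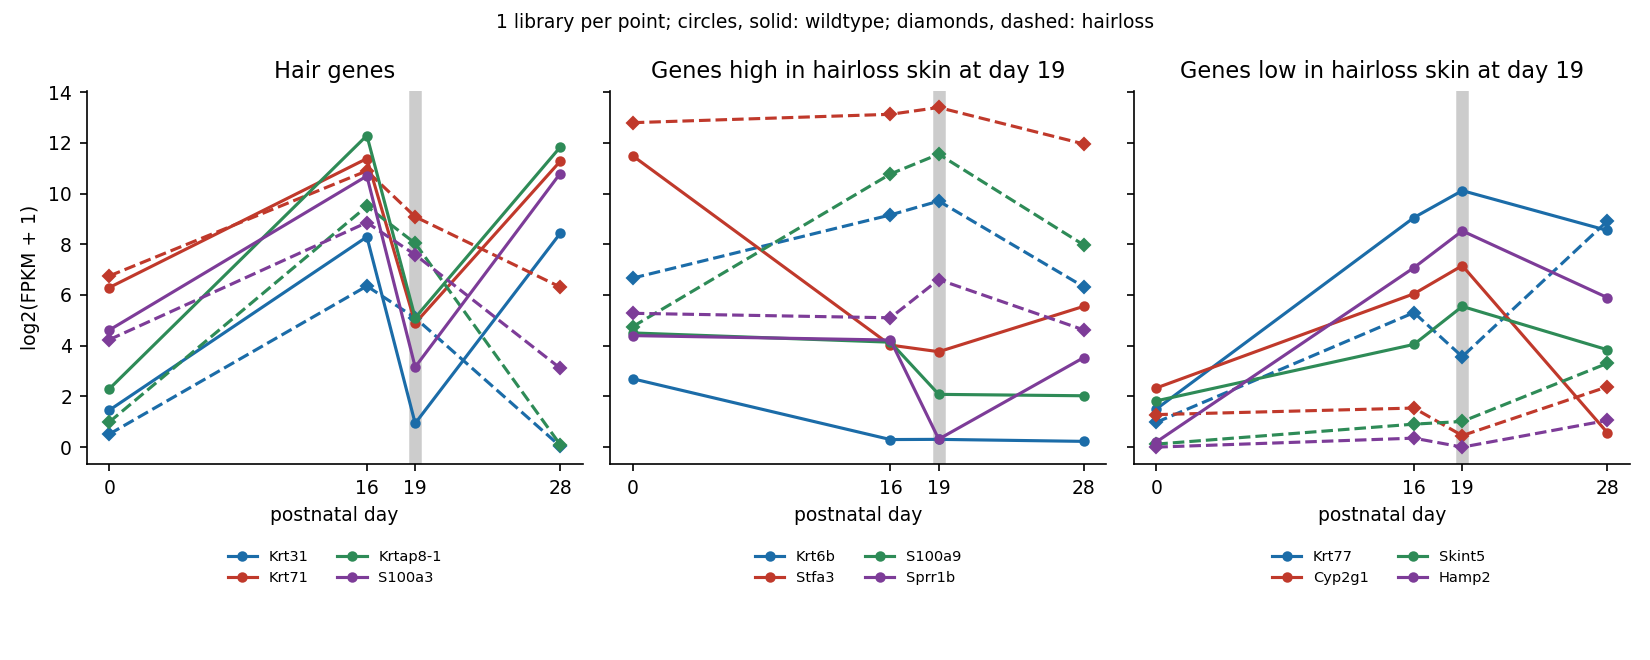
Values of 12 genes at postnatal days 0, 16, 19 and 28 as log2(FPKM + 1), with 1 library per point, wildtype as circles on solid lines and hairloss as diamonds on dashed lines, and day 19 on the grey band. In the left panel wildtype hair genes are lower at day 19 than at days 16 and 28 and hairloss values of day 19 lie above them, in the middle panel hairloss values lie above wildtype from day 0 on, and in the right panel wildtype values peak at day 19.

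Antimicrobial peptides and proteins were higher in 12 of 17 measured and lower in 1, with a median of 1.47 and 8 above the wildtype range. Lcn2, an iron-scavenging lipocalin, stood at 2.0 FPKM in wildtype against 83.8 FPKM in hairloss. Chil1, a chitinase-like protein, was at 6.71 and 210 FPKM. Slpi, a protease inhibitor of secretions, was at 1.20 and 42.3 FPKM. Defb14, a beta-defensin, was listed at 0 in wildtype but at 20.8 FPKM in hairloss, and Defb4 at 0 and 4.04 FPKM. Saa3, an acute-phase protein, stood at 0.0121 FPKM in wildtype, a value of about 1 fragment, and at 57.5 FPKM in hairloss. Wfdc21 was the lower member, at 431 and 61.0 FPKM.

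Serpins of clade B, inhibitors of proteases inside cells, were mixed, with 7 of 16 higher and 3 lower and a median of 0.46. Serpinb3b, of the squamous cell antigen kind, was at 3.70 FPKM in wildtype against 52.1 FPKM in hairloss, and Serpinb3a at 0.147 and 30.2 FPKM. Serpinb12 was at 8.0 and 68.3 FPKM. Serpinb6e went the other way, at 83.3 FPKM in wildtype against 0.416 FPKM in hairloss. The proteases of the horny layer, the kallikreins, were higher in 6 of 15 and lower in none, with 4 above the wildtype range. Klk13 stood at 0.477 and 34.4 FPKM and Klk6 at 42.7 and 277 FPKM, while Klk5 was at 94.6 and 75 FPKM and its inhibitor Spink5 at 129 and 83.2 FPKM.

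Gsdmc, a gasdermin that forms membrane pores, was at 0.0735 FPKM in wildtype against 47.9 FPKM in hairloss. Of 7 gasdermins measured 3 were higher, and Gsdma2 was lower at 9.10 and 0.812 FPKM. Gsdma stood at 28.6 and 30.3 FPKM. Slurp2 and Slurp1, small secreted keratinocyte proteins, were at 0.983 and 27 FPKM and at 2.13 and 11.5 FPKM. Gjb2, connexin 26 of the gap junction, was at 5.73 and 184 FPKM, with 275 FPKM in wildtype at day 16. Cldn10, a claudin, stood at 11.3 FPKM in wildtype against 1.13 FPKM in hairloss and lay under the wildtype range.

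Cytokines of the interleukin 1 family were higher in 8 of 19 genes and lower in 1, with a median of 0.70 and 7 above the wildtype range. Il1f6, which encodes interleukin 36 alpha, was at 0.654 FPKM in wildtype against 20.3 FPKM in hairloss. Il1f8, interleukin 36 beta, was at 3.91 and 32.2 FPKM. Il1f5, the interleukin 36 receptor antagonist, stood at 44.0 and 148 FPKM, so agonist and antagonist were both higher. Il1b was at 1.71 and 7.26 FPKM and Il1a at 4.13 and 6.10 FPKM. Il1r2, the decoy receptor, was lower at 44.2 and 16.3 FPKM.

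Chemokines were higher in 7 of 26 genes and lower in 4, with 5 above the wildtype range. Cxcl5 and Cxcl1, which draw neutrophils, were at 0.0518 and 7.10 FPKM and at 0.356 and 5.55 FPKM. Ccl27a, the skin-homing chemokine of keratinocytes, was lower at 806 FPKM in wildtype against 205 FPKM in hairloss. Ccl24, an eosinophil chemokine, was lower at 5.20 and 0.452 FPKM. Of 8 other interleukins measured 1 was higher and 1 lower, and of 23 interferon response genes none was higher and 3 were lower. Over all genes 5.83% were higher and 5.25% lower. Usp18 stood at 5.43 and 1.18 FPKM, and Isg15 at 5.27 and 4.58 FPKM.

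Neutrophil genes were higher in 8 of 10 measured, of a list of 16, and lower in none, against 5.83% higher of all genes. Their summed level was 23.5 FPKM in wildtype against 6580 FPKM in hairloss, nearly all of it S100a8 and S100a9, which keratinocytes also make. Of the defining genes, Cxcr2, a chemokine receptor of neutrophils, was at 0.0509 and 5.81 FPKM and Csf3r, the receptor for granulocyte growth factor, at 0.491 and 5.59 FPKM. Ly6g, the remaining defining gene, was at 0.0310 FPKM in wildtype and was listed at 0 in hairloss. Ly6g was thus not measured, while Cxcr2 and Csf3r passed the minimum of 1 FPKM only through hairloss. The count of higher neutrophil genes therefore partly follows from that minimum. Mmp9, a gelatinase, stood at 3.74 and 28 FPKM. Macrophage genes showed no such difference. Of 17 measured none was higher and 1 was lower, the median was 0.01, or -0.15 after scaling to an equal coding total, and Csf1r was at 128 and 111 FPKM. In bulk skin, fewer cells of a type and less RNA per cell cannot be told apart. Mast cell genes were higher in 1 of 11 and lower in 1, against 5.83% and 5.25% of all genes.

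Ligands of the EGF receptor family split. Nrg1, neuregulin 1, was at 0.139 FPKM in wildtype against 8.88 FPKM in hairloss, and Hbegf, a shed wound growth factor, at 3.37 and 21.2 FPKM. Both stood above the wildtype range. Btc, betacellulin, was lower at 24 and 3.13 FPKM. Of 14 genes measured 5 were higher and 1 lower, and the receptor Egfr stood at 36.6 and 47.0 FPKM. In the JAK-STAT list 4 of 15 were higher and none lower. Il4ra, the interleukin 4 receptor chain, was at 11.6 and 58.8 FPKM, and Stat3 at 43.0 and 89.7 FPKM.

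Late differentiation genes were split by gene rather than moved as a block. Flg, filaggrin, was at 89.1 FPKM in wildtype against 1361 FPKM in hairloss, a ratio of 15.3, and lay inside the wildtype range because newborn wildtype skin held 1847 FPKM. Flg2, filaggrin 2, went the other way at 212 and 26.9 FPKM and lay under the wildtype range. Lor, loricrin, stood at 156 and 72.5 FPKM, and Ivl, involucrin, at 53.5 and 66.4 FPKM. Of 14 Lce1 genes, 6 were higher and 3 lower. Lce1m was lower by the most, at 381 FPKM in wildtype against 18.7 FPKM in hairloss, and Lce1g was higher at 1.51 and 26.2 FPKM. Of 13 genes of the loricrin, involucrin and S100 fused-type list, 3 were higher and 3 lower.

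Genes that make the lipid barrier were lower or within 2-fold. Of 25 ceramide enzymes and transporters none was higher and 4 were lower, against 5.25% of all genes, namely Aloxe3, Elovl1, Smpd1 and Sptlc3, with a median of 0.11 that was -0.05 after scaling to an equal coding total. Abca12, the lipid transporter of keratinocytes, was at 36.9 and 36.6 FPKM and Elovl1, a fatty acid elongase, at 212 and 84.1 FPKM. Genes of the sebaceous gland were lower, with 8 of 24 lower and 1 higher and a median of -0.81. Scd3, a desaturase, was at 89.0 and 8.93 FPKM, and Awat2, a wax synthase, at 64.8 and 8.05 FPKM. Elovl3 was the higher one, at 12.1 and 40.7 FPKM. For both Scd3 and Awat2 the day 19 wildtype value was the highest of the wildtype ages.

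The largest differences to the lower side were single genes. Hamp2, a hepcidin gene, stood at 368 FPKM in wildtype and was listed at 0 in hairloss, and Hamp was at 20.7 FPKM and 0. Cyp2g1, a cytochrome P450, was at 142 and 0.371 FPKM, a ratio of 382. Serpina3b, an extracellular serpin, stood at 66.8 and 0.579 FPKM. Hairloss skin was at 1.07 FPKM or less for Hamp2 at every age, and at 4.20 FPKM or less for Cyp2g1. Crygn, a crystallin, was listed at 0 in hairloss skin against 9.25 FPKM. Dapl1 was at 258 and 25.7 FPKM, Paqr7, a membrane progestin receptor, at 88.6 and 8.20 FPKM, and Cpz, a carboxypeptidase, at 65.8 and 5.02 FPKM.

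Exact zeros need caution. In 19 coding genes a day 19 library was listed at 0 while the other held 5 FPKM or more, and in 15 of these the 0 was in wildtype. Col1a1 and Col3a1, which every skin expresses strongly, were listed at 0 in wildtype at day 19 and at 576 and 1659 FPKM in hairloss. Both are suspected failed estimates and were not named among the largest differences, but they remain in the counts. Leaving out the 9 suspected failed estimates, some with a 0 only at another age, gave 792 higher genes instead of 798 and the same 718 lower ones. The other genes listed at 0 at day 19 stayed in these counts. Igfl3 was listed at 0 in wildtype but at 16.6 FPKM in hairloss, and Cstdc4 at 0 and 33.1 FPKM.

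Skint genes, which encode membrane proteins of the epidermis and include the selector of a resident gamma-delta T cell lineage, were lower in 7 of 11 and higher in none, with a median of -2.19. Skint5 stood at 45.8 FPKM in wildtype against 1.02 FPKM in hairloss, and Skint9 at 29.8 and 5.02 FPKM, under the wildtype range. Skint1, the gene that gave the family its role in T cell selection, was at 42.0 and 84.8 FPKM, a difference that missed the 2-fold count narrowly. The 11 genes lie together on chromosome 4. T cell genes were lower in 3 of 14 and higher in 1, Gzmb, a granzyme. The lower ones were Cd3g at 15 and 4.22 FPKM, Cd7 at 9.93 and 1.5 FPKM and Cd247 at 4.76 and 1.53 FPKM. Cd3e, at 4.24 and 1.74 FPKM, did not reach 2-fold on the log2(FPKM + 1) scale. Langerhans cell and MHC class II genes were lower in 3 of 14 and higher in 1, Epcam. The lower ones were Cd207, the marker of Langerhans cells, at 12.8 and 5.02 FPKM, H2-Aa at 281 and 125 FPKM, and Il1r2. Cd74 was at 345 and 229 FPKM, within 2-fold.

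**Figure D4:**
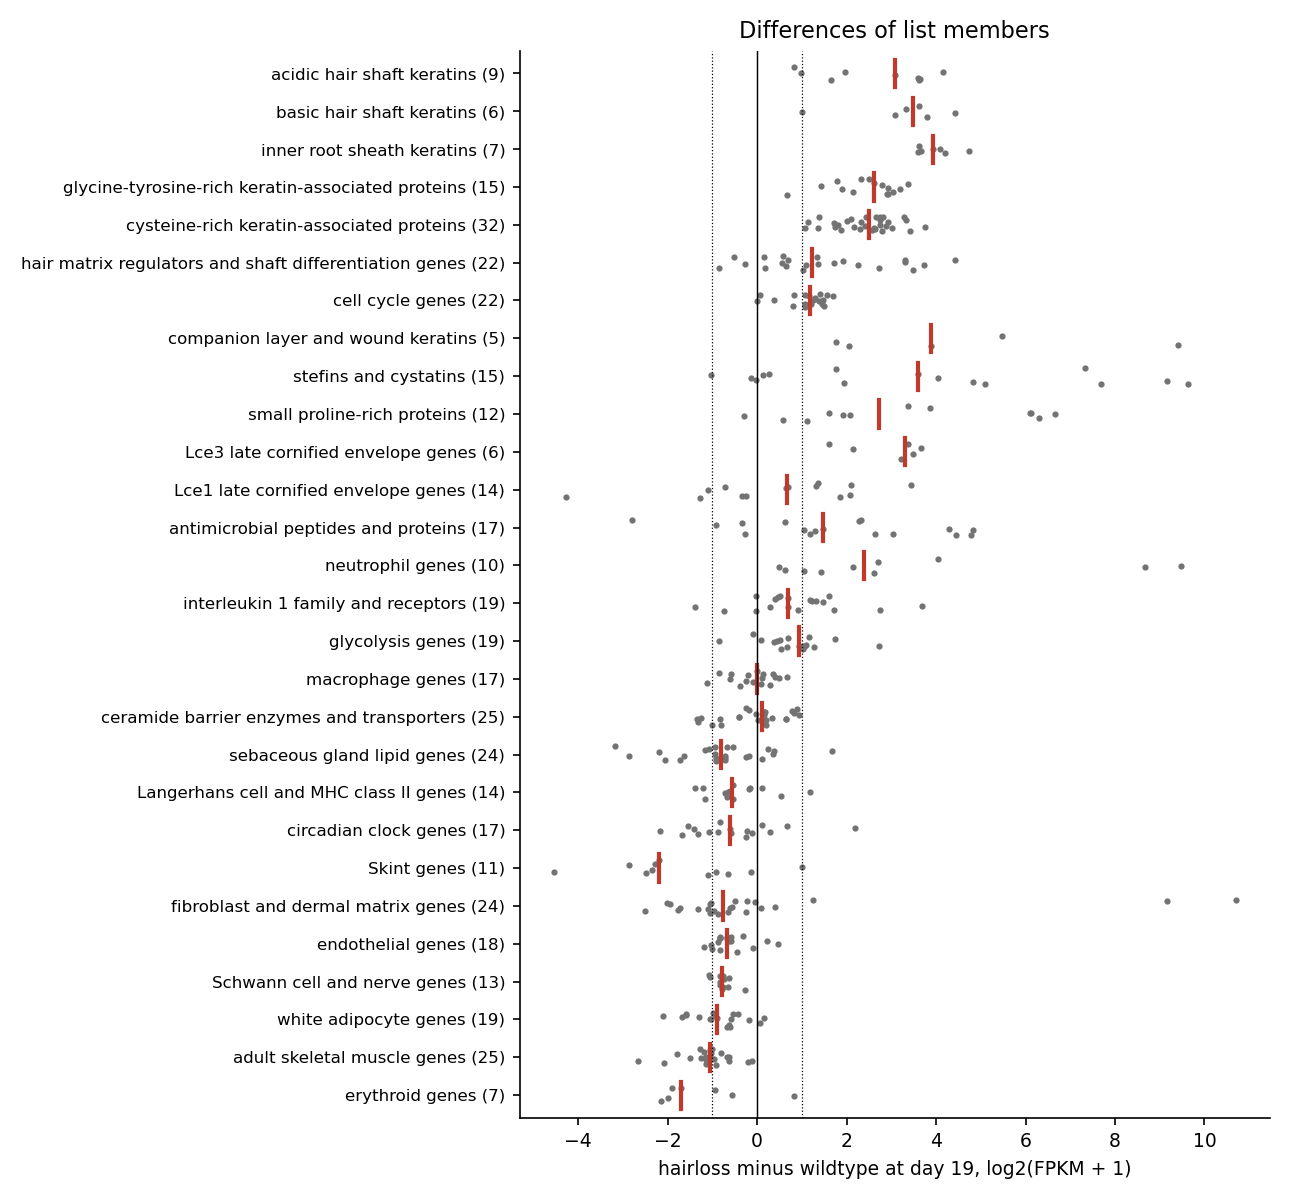
Each grey point is 1 measured member of a list, with the number measured in brackets, and each red bar is the median, as hairloss minus wildtype at day 19 on the log2(FPKM + 1) scale; dotted lines mark 2-fold. Hair, wound keratin, stefin and cystatin, Sprr and Lce3 lists lie to the right, from a median of 3.93 for inner root sheath keratins. Skint, fat, muscle and erythroid lists lie to the left. The 2 fibroblast points at the far right are Col1a1 and Col3a1, listed at 0 in wildtype.

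Genes of muscle and fat, the deep layers of skin, were often lower in hairloss skin. Adult skeletal muscle genes, which skin carries in the panniculus carnosus, were lower in 16 of 25 and higher in none, with a median of -1.05 and a summed level of 10258 FPKM in wildtype against 4708 FPKM in hairloss. Ckm, creatine kinase, was at 894 and 395 FPKM and Pvalb, parvalbumin, at 625 and 180 FPKM. White adipocyte genes were lower in 7 of 19 and higher in none, with a median of -0.90 and a sum of 2193 and 1346 FPKM. Adipoq, adiponectin, stood at 137 and 55.5 FPKM, and Lep, leptin, at 9.09 and 2.14 FPKM. No muscle or adipocyte gene lay 2-fold or more under its lowest wildtype library, and smaller shortfalls were not counted.

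Fibroblast and dermal matrix genes were lower in 10 of 24 and higher in 3, with a median of -0.76. Of the 3 counted as higher, Col1a1 and Col3a1 are the suspected failed estimates, and the other was Postn, periostin. Col1a2, the second type I collagen chain, was at 3535 and 627 FPKM, Sparc, a matrix glycoprotein, at 2487 and 645 FPKM and Dcn, decorin, at 1118 and 445 FPKM. Col12a1, a fibril-associated collagen outside this list, went the other way at 10.1 and 97.6 FPKM. Endothelial genes were lower in 3 of 18, with a median of -0.67, and Schwann cell and nerve genes in 2 of 13, with a median of -0.79; none of either list was higher. Most members of both lists thus lay within 2-fold, as did pericyte and smooth muscle genes, of which 1 of 12 was lower. Cldn5, a vessel tight junction protein, was at 22.7 and 9.49 FPKM. Erythroid genes were lower in 4 of 7, with a median of -1.69, and all 4 were globin genes, of which Hbb-bs stood at 580 and 154 FPKM. The share of coding FPKM held by keratin and KRTAP genes was 1.58% in wildtype and 4.92% in hairloss, and its part in these lower values was not tested.

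Matrix-degrading enzymes were mixed, with 4 of 32 higher and 5 lower, against 5.83% and 5.25% of all genes. Mmp13, collagenase 3, was at 0.0841 FPKM in wildtype against 8.41 FPKM in hairloss, and Timp1, an inhibitor of these enzymes, at 4.53 and 37.0 FPKM. Mmp27 was lower at 15.7 and 2.64 FPKM. Bulge and stem cell genes were lower in 4 of 18 and higher in 1, and Cd34, which marks bulge cells and vessels, was at 167 and 48.2 FPKM. Among epidermal transcription factors 6 of 25 were higher and 1 lower. Grhl3, of the barrier regulators, stood at 15.8 and 42.3 FPKM, above the wildtype range. Trp63, the epidermal master regulator, was at 47.8 and 74.7 FPKM. Desmosomal genes, which join keratinocytes, were higher in 8 of 16 and lower in none, with Dsg3 at 26.9 and 81.6 FPKM and Dsc2 at 5.33 and 22.8 FPKM.

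In the Wnt, hedgehog and BMP pathways of the hair cycle no gene was counted as higher and a few were lower. Of all genes measured, 5.83% were higher and 5.25% lower, and the lower counts of these lists were not under that share. Of 36 Wnt genes none was higher and 2 were lower, of 11 hedgehog genes none was higher and 1 was lower, and of 22 BMP genes none was higher and 2 were lower. Their medians were -0.01, -0.15 and -0.29. Sfrp4, a Wnt antagonist, was at 12.8 and 1.86 FPKM, and Id3, a BMP target, at 48.0 and 17.6 FPKM. Hr, the hairless corepressor, stood at 79.2 and 159 FPKM and was the only one of 6 genes of the hairless and vitamin D receptor list counted as higher. That call passed the 2-fold line only just and was lost at 0.85 after scaling to an equal coding total and at 0.93 when keratin, KRTAP and epidermal differentiation complex genes were left out of that total. Vdr was at 23.2 and 46.8 FPKM, a difference of 0.98, and Soat1, a sterol acyltransferase whose mutation affects the hair interior in mice, was lower at 57.2 and 25.1 FPKM.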

How the data were processed

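The authors deposited 1 value per Ensembl gene for each of the 8 libraries, and the headers name no unit. FPKM was inferred as the unit of the deposited values from their range and because Cuffdiff is named, with cutadapt and build mm10, per the submitters' processing notes. RNA came from RNeasy columns and libraries from TruSeq kits, per the labels' protocols; aligner, strand and any scaling between libraries are not stated in the sources used here. Groups and ages come from the labels.

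Gene types and coordinates were taken from GENCODE M21 (mm10). Libraries were joined by gene identifier with pandas 2.3.3 and numpy 2.4.6 (Python 3.11.15), and figures were drawn with matplotlib 3.10.9. Differences are log2(FPKM + 1), with a pseudocount of 1, a minimum of 1 FPKM in either library and a fold of 2. No test was possible with 1 library per group. The size rule and the depth estimate, which uses the value of 1 fragment in single-transcript genes of over 1000 bases, were tested on simulated data. That simulation held counting error only and planted changes larger than 2-fold. It cannot check calls near the 2-fold line or variation between animals. At these depths 3 fragments in a transcript of 1 kb equal 0.0771 FPKM in wildtype and 0.0971 FPKM in hairloss at day 19, counting error only.

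A gene at 0 in at most 3 libraries and at 5 FPKM or more in every other library was a suspected failed estimate (9 coding genes, 3 with a 0 at day 19). Promoter sequences are RefSeq's, on GRCm38.p6.

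The genes and the 78 lists were chosen with earlier results of these data known, so a list's direction is a description. Named genes are the 15 largest differences each way among protein-coding genes, leaving out predicted, olfactory and antigen receptor genes and suspected failed estimates. From each list described they are up to 4 members with the largest absolute difference and the first 3 as written, all keratins, and genes listed at 0 in 1 library and at 5 FPKM or more in the other. A few genes this rule would name are not reported here. Genes of other small lists were named to resolve a count of 5 or fewer. Alternatives changed the pseudocount, the scaling between libraries, the filter on low values, the fold, the suspected failed estimates and the wildtype range.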

Additional observations from a re-analysis of the deposited data

Results flagged for a closer look

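The genotype difference of the hair lists had opposite signs at day 19 and at the neighbouring ages. Each age has a single pair of libraries, so the difference between ages was not tested. The day 28 pair also differed in sex markers, with Ddx3y at 16.5 FPKM in wildtype and 0 in hairloss. All values are median differences, hairloss minus wildtype on the log2(FPKM + 1) scale. For acidic hair shaft keratins the value was 3.08 at day 19, -2.04 at day 16 and -4.93 at day 28. For basic hair shaft keratins it was 3.48, -2.01 and -8.61. Inner root sheath keratins gave 3.93, -1.82 and -4.95. Glycine-tyrosine-rich KRTAPs gave 2.62, -2.48 and -9.17, and cysteine-rich KRTAPs 2.50, -2.16 and -6.71. Hair matrix regulators and shaft differentiation genes, taken as 1 list, gave 1.22, -1.58 and -2.97. Adult skeletal muscle genes gave -1.05 at day 19 and 1.31 at day 28.

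Signal outside the coding genes stood out in the day 19 wildtype library. The noncoding gene AY036118 stood at 1597 FPKM there and at 0 in the hairloss library of the same age. Gm42418 stood at 91.7 FPKM and 0, and Xist at 12.4 FPKM and 0.115 FPKM. Their relation to the coding differences was not tested.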

How the results depend on the processing

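No paired analysis was possible because each group holds 1 library and the labels give no replicate numbers. With a pseudocount of 0.1 there were 1059 higher genes instead of 798 and 1117 lower instead of 718, and genes below the wildtype range 73 instead of 30. With a pseudocount of 5, 407 genes were higher and 282 lower. At 1.5-fold, 1820 were higher and 1926 lower, and at 4-fold 232 and 106. Scaling to an equal coding total gave 637 higher and 938 lower and a shift of 0.16 (log2), and the same without keratin, KRTAP and epidermal differentiation complex genes gave 725 and 805, so whether higher or lower genes were more numerous depends on the scaling, the pseudocount and the fold. Without the day 19 wildtype library in the wildtype range, 326 genes lay above it and 49 below, and without the day 0 wildtype library 91 lay below; these settings were chosen after seeing the data. The cause of each shift was not tested. Of the list medians, 592 stayed near their value and 31 moved; of named genes 112 stayed and 38 moved. None of the named genes changed direction, and list medians that changed sign, among them macrophage, ceramide barrier, suprabasal keratin and Wnt genes, lay near 0, apart from simple keratins (0.98, and -0.06 with no filter) and chemokines (0.39, and -0.02 with a minimum of 5 FPKM). The keratins of the hair, the KRTAPs, stefins, Skint and muscle genes kept their direction. Leaving out a replicate was not possible with 1 library per group. Depth limits values under about 0.1 FPKM, which stand for about 3 fragments per kilobase.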

Other observations

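Some energy, clock and vitamin A genes also differed at day 19. Glycolysis genes were higher in 9 of 19 measured and lower in none, with a median of 0.95 and 3 above the wildtype range. Slc2a1, the glucose transporter of the epidermis, was at 5.70 FPKM in wildtype against 43.6 FPKM in hairloss, and Eno1, an enolase, at 73.0 and 248 FPKM. Of 77 nuclear genes of oxidative phosphorylation 1 was higher and 8 were lower, against 5.83% higher and 5.25% lower of all genes. Their median was -0.26. Among the lower ones were the muscle and heart forms Cox7a1 (203 and 41.0 FPKM) and Cox6a2 (96.3 and 21.5 FPKM). Clock genes were lower in 6 of 17 and higher in 1. Dbp, an output factor of the clock, was at 25.2 and 4.79 FPKM and Nr1d1, a clock repressor, at 22.2 and 6.27 FPKM, while Bhlhe40 was the higher one at 8.77 and 43.9 FPKM. Arntl stood at 9.09 and 11.4 FPKM. The hour of sampling is not stated in the sources used here.

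Retinoid genes were higher in 5 of 16 and lower in 2. Aldh1a3, which makes retinoic acid, was at 2.94 and 42.6 FPKM and Crabp2, a retinoic acid-binding protein, at 46.2 and 141 FPKM, whereas Aldh1a1 was lower at 28.5 and 6.30 FPKM. Of 19 oxidative stress genes 4 were higher and 1 lower, with Slc7a11, a cystine transporter, at 0.175 and 7.63 FPKM. Groups with no gene past 2-fold in either direction were the proteasome (36 measured), heat shock genes (13) and p53 and growth arrest genes (14). Of 927 long noncoding genes measured, 34 were higher (3.67%) and 73 lower (7.87%).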
